A study of Mus musculus with 16 samples.

Results

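Dopamine receptors and striatal signalling genes were followed in brain RNA of adolescent mice. The set holds 9 genes of the 49671 in the count files, chosen by symbol for their place in dopamine transmission. They are the receptor genes Drd1, Drd2, Drd3, Drd4 and Drd5, the dopamine-making and dopamine-transporting genes Th and Slc6a3, and the striatal effectors Ppp1r1b and Adora2a. All 9 were matched by Ensembl identifier. RNA was sequenced from 16 C57BL/6 brains, 1 mouse per library and 4 mice in each of 4 groups. LPS-LPS mice came from dams given lipopolysaccharide (LPS, a bacterial cell-wall component that triggers innate immunity) intraperitoneally on gestation day 16, and received LPS again at postnatal day 30. LPS-saline mice had prenatal LPS and pubertal saline, saline-LPS mice had prenatal saline and pubertal LPS, and saline-saline mice had saline at both times. Offspring were described as male, and brains were taken at postnatal day 32. The first word of each group name was read as the dam's injection, which the labels do not spell out. If the order were reversed, the names prenatal and pubertal would swap. Litters are not given, so some of the mice may share a dam, and the p-values cover only the spread seen among the 16 animals.

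Dopamine is made from tyrosine by tyrosine hydroxylase (Th) and cleared from the synapse by the dopamine transporter (Slc6a3). Its receptors fall into a D1-like class (Drd1, Drd5), which raises cyclic AMP, and a D2-like class (Drd2, Drd3, Drd4), which lowers it. In the striatum, the main target of midbrain dopamine neurons, Drd1 marks the direct-pathway spiny neurons, while Drd2 and the adenosine receptor gene Adora2a mark the indirect-pathway ones. Ppp1r1b encodes DARPP-32, a phosphatase inhibitor that both kinds of spiny neuron use to relay dopamine signals. Drd5 is expressed mainly outside the striatum, in the hippocampus, cortex, hypothalamus and parts of the thalamus.

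RefSeq promoter windows (GRCm38.p6, 250 bases before to 50 after a transcript start) were found for 7 of the 9 genes, with 8 windows because Drd1 had a pair of starts. They are shown for both D1-like receptors, Drd5 being the only gene of the 9 that passed the main edgeR test, and for the pair of genes that mark dopamine neurons. Capitals mark matches, on either strand, to the cyclic AMP response element TGACGTCA or the GC box GGGCGG. The windows are chr5:38319259-38319558 (+) for Drd5, chr13:54055609-54055908 (-, the upstream start) for Drd1, chr7:142899946-142900245 (-) for Th and chr13:73536497-73536796 (+) for Slc6a3.
Drd5: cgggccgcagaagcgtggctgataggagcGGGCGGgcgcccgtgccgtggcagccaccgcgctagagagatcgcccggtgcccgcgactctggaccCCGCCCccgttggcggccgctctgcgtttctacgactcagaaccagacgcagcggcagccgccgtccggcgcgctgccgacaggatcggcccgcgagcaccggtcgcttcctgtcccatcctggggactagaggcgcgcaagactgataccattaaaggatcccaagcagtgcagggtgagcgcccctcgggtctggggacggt
Drd1: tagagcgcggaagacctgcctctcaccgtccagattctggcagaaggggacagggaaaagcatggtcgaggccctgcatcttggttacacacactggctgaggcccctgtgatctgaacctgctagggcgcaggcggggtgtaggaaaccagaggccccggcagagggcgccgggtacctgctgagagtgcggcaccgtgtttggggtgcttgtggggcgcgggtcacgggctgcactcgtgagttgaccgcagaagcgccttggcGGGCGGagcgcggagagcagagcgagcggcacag
Th: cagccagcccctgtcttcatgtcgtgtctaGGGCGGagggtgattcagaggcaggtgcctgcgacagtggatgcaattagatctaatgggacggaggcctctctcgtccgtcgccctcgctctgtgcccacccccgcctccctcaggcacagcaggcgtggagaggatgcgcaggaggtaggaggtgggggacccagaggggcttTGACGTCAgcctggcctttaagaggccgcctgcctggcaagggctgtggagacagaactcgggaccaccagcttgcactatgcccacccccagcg
Slc6a3: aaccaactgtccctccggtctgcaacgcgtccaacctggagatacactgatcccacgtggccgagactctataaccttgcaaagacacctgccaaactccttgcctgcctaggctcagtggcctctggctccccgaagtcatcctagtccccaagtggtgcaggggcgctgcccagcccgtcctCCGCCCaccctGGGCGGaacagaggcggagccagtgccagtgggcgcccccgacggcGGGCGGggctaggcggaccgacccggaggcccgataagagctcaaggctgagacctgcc
The cyclic AMP response element was found in 1.79% of the 32851 windows in the RefSeq table and, among the 8 windows of these genes, only in that of Th, with its first base at position -45 from the start. The GC box was found in 35.7% of all windows and in those of Drd1, Drd2, Drd4, Drd5, Th and Slc6a3, but not in that of Drd3. Drd5 held GC boxes at -221 and -154, and Slc6a3 at -66, -55 and -9. The TATA box TATAAA, found in 13.6% of all windows, matched none of the 8. The matches are descriptions of letters, not of factor binding.

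Libraries held 25729919 to 38571036 gene counts. Levels are given in CPM (counts scaled by the gene total of the library), in the order of the replicate numbers, and fold changes come from edgeR's quasi-likelihood test over 18875 genes with Benjamini-Hochberg adjustment. Some libraries stood apart for reasons outside the group names. The cerebellar granule cell gene Gabra6 was under 1 CPM in 8 of them (LPS-LPS 2, LPS-saline 1 and 2, saline-LPS 1 and 2, saline-saline 1, 2 and 3) and at or above 1 CPM in the other 8, from 2.47 CPM in LPS-LPS 1 to 71.3 CPM in saline-LPS 3. LPS-LPS 1 held pituitary RNA (Gh at 496 CPM), as did saline-LPS 1 to a lesser extent (43.8 CPM). The sample titles say only brain, and by these genes the libraries differed in their cerebellar and pituitary RNA. LPS-LPS 3 had 502 CPM of Xist and 0 counts of Ddx3y, which goes against its male label. The 21 tested markers of striatal spiny neurons summed to 2554 to 3090 CPM, and no marker of that list was at 0 in all libraries.

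Counts were divided by exonic length to compare levels between genes. Ppp1r1b was the most abundant of the 9, at 119 ± 12.5 CPM per kb (SD over 16 libraries), and Adora2a followed at 19.2 ± 2.11 CPM per kb. Drd2 stood at 12.4 ± 1.42, Th at 10.7 ± 1.68 and Drd1 at 7.59 ± 1.05 CPM per kb. These neighbours overlapped: Drd2 was above Th in 14 of 16 libraries and Th above Drd1 in 14. Slc6a3 had 3.34 ± 0.987 CPM per kb, below Drd1 in 16 of 16 libraries although their ranges overlapped. The remaining receptor genes were low, with Drd5 at 0.499 ± 0.126, Drd3 at 0.343 ± 0.149 and Drd4 at 0.174 ± 0.0619 CPM per kb, and neighbouring ranges overlapped there too.

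**Figure D1:**
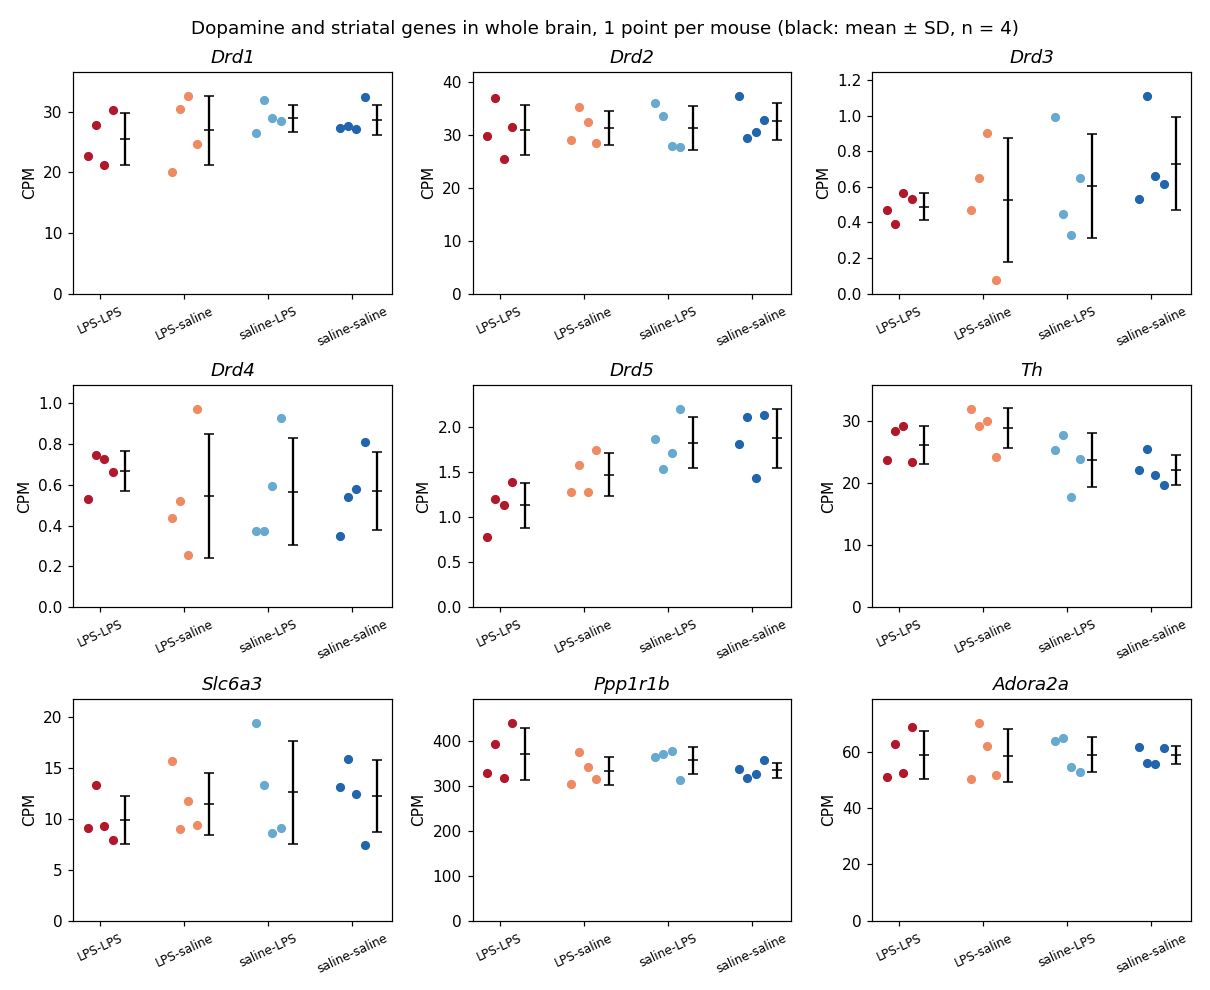
Level of each of the 9 genes (y axis, CPM, starting at 0) in the 4 groups (x axis), with 1 point per mouse in replicate order and the mean ± SD of 4 mice in black. For Drd5 the 4 LPS-LPS points, 0.783 to 1.39 CPM, lie below all saline-LPS and saline-saline points, whereas the groups overlap for the other 8 genes.

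Drd5 was lower in brains exposed to LPS at both times than in brains exposed at neither. Of the 9 genes it alone passed the main edgeR test, which held no replicate block. For prenatal LPS averaged, Th also passed by DESeq2 (adjusted p = 0.0267) and by edgeR with the replicate number as a block (adjusted p = 0.0238). Drd5 fell in LPS-LPS relative to saline-saline, where 2.29% of all tested genes were called lower and 6.56% in either direction. It also fell for prenatal LPS averaged over the pubertal injection, where 2.92% were called lower and 7.82% in either direction. Beside those shares, 1 call among 9 genes is near what any 9 genes would give, and it does not set these genes apart. The 9 genes had a median log2 fold change of -0.06 in LPS-LPS against saline-saline, beside -0.000425 for all genes, and of -0.03 for prenatal LPS averaged, beside -0.00538 for all genes. In LPS-saline against saline-saline and in LPS-LPS against saline-LPS, 0 of the 9 were called by edgeR or by DESeq2 and 1 in each lay at an unadjusted p under 0.05 (0.18% and 0.609% of all genes were called). In saline-LPS against saline-saline, LPS-LPS against LPS-saline, pubertal LPS averaged and the interaction, both tools called 0 of the 9, 0 lay at an unadjusted p under 0.05, and edgeR called 0.0% of all genes. In brain RNA, fewer cells of a type and less RNA per cell cannot be told apart.

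**Figure D2:**
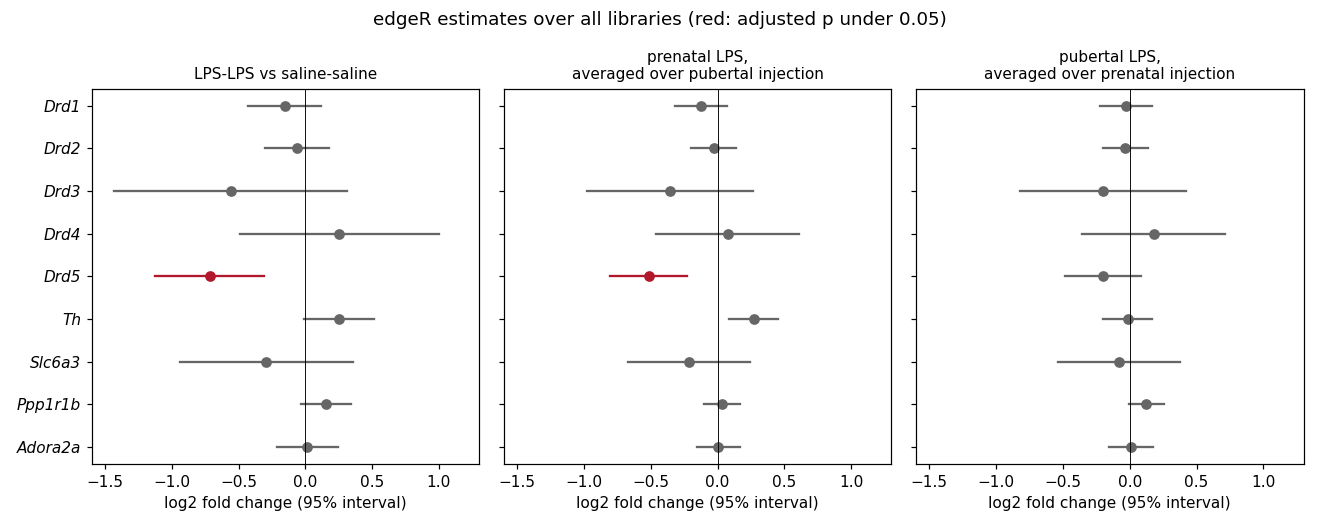
Log2 fold change (x axis, points, with 95% intervals as lines) of the 9 genes (rows) for LPS-LPS against saline-saline, prenatal LPS averaged over the pubertal injection, and pubertal LPS averaged over the prenatal injection. Red marks an adjusted p under 0.05, which Drd5 alone reached, at -0.71 in LPS-LPS against saline-saline and -0.52 for prenatal LPS averaged.

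Drd1, the main D1-like receptor gene of the direct-pathway neurons, did not pass the test in any of the 8 comparisons. It stood at 22.8, 27.9, 21.2 and 30.3 CPM in LPS-LPS and at 20.1, 30.5, 32.7 and 24.6 CPM in LPS-saline. In saline-LPS it stood at 26.4, 31.9, 28.9 and 28.5 CPM, and in saline-saline at 27.3, 27.6, 27.2 and 32.4 CPM. The 4 groups overlapped, and the lowest values lay in brains with prenatal LPS. Its log2 fold change was -0.15 ± 0.13 (SE) in LPS-LPS against saline-saline, with a 95% interval from -0.43 to 0.12 and an adjusted p of 0.542 by edgeR. For prenatal LPS averaged it was -0.12 ± 0.09 (adjusted p = 0.457), and for pubertal LPS averaged -0.03 ± 0.09 (adjusted p = 0.991). The spread of Drd1 was wider with prenatal LPS, with an SD of 4.73 CPM over 8 LPS brains and 2.22 CPM over 8 saline brains, a difference in spread that was not tested.

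Drd2, the D2-like receptor gene of the indirect-pathway neurons and also the autoreceptor of midbrain dopamine neurons, had similar means in the 4 groups. It averaged 30.9 ± 4.77 CPM in LPS-LPS, 31.3 ± 3.17 CPM in LPS-saline, 31.3 ± 4.20 in saline-LPS and 32.6 ± 3.54 in saline-saline (SD, n = 4 each). Every pair of groups overlapped, and single brains ran from 25.5 CPM in LPS-LPS 3 to 37.4 CPM in saline-saline 1. The log2 fold change of LPS-LPS against saline-saline was -0.06, with an interval from -0.30 to 0.18. Within each library, the log2 ratio of Drd1 to Drd2 counts differed by -0.11 between prenatal LPS and prenatal saline (exact stratified permutation test, two-sided, p = 0.271, adjusted p = 0.569 over 21 ratio tests). No shift between the direct-pathway and the indirect-pathway receptor gene passed the test.

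Adora2a, whose adenosine receptor opposes Drd2 in the indirect-pathway neurons, had nearly equal group means. It averaged 58.9 ± 8.47 CPM in LPS-LPS, 58.8 ± 9.45 in LPS-saline, 59.1 ± 6.15 in saline-LPS and 58.8 ± 3.19 in saline-saline (SD, n = 4 each). Single brains nonetheless ran from 50.6 CPM in LPS-saline 1 to 70.5 CPM in LPS-saline 2, members of the same group. Its log2 fold change for LPS-LPS against saline-saline was 0.01, with a 95% interval from -0.21 to 0.24.

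Ppp1r1b, the DARPP-32 gene, did not pass the test either. It stood at 329, 394, 317 and 441 CPM in LPS-LPS and at 305, 375, 342 and 314 CPM in LPS-saline. In saline-LPS it stood at 364, 372, 378 and 314 CPM, against 338, 318, 327 and 357 CPM in saline-saline. LPS-LPS held the highest brain, while its value of 329 CPM lay within the saline-saline range and its value of 317 CPM just below it. The log2 fold change of LPS-LPS against saline-saline was 0.16 ± 0.09 (edgeR adjusted p = 0.333), and that of pubertal LPS averaged 0.12 ± 0.06 (adjusted p = 0.951). With the level of the striatal marker list as a covariate, the LPS-LPS against saline-saline estimate was 0.26 and passed the test (edgeR adjusted p = 0.0244). Ppp1r1b passed under no other alternative. The estimate was 0.07 without LPS-LPS 4 (edgeR adjusted p = 0.739) and 0.11 with the exonic length correction (edgeR adjusted p = 0.617). Ppp1r1b shares 460 exonic bases with the opposite-strand gene 1700003D09Rik, which had 7 to 56 counts per library against 8087 to 14450 for Ppp1r1b.

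Drd5, the second D1-like receptor gene (chr5:38319367-38322518, a single exon, GRCm38), had 0.783, 1.20, 1.14 and 1.39 CPM in LPS-LPS. It had 1.28, 1.58, 1.27 and 1.75 CPM in LPS-saline. Brains with prenatal saline were higher, with 1.86, 1.53, 1.71 and 2.20 CPM in saline-LPS and 1.81, 2.11, 1.43 and 2.14 CPM in saline-saline. All 4 LPS-LPS brains lay below all 4 saline-saline brains, a pattern that 8.77% of tested genes showed in the lower direction, and below all 4 saline-LPS brains, as 3.61% of genes did. LPS-saline overlapped both. These levels rest on few reads: 25 to 42 counts per LPS-LPS library and 52 to 70 per saline-saline library.

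For Drd5 the log2 fold change was -0.71 ± 0.20 in LPS-LPS against saline-saline (95% interval -1.12 to -0.31, edgeR adjusted p = 0.0327) and -0.52 ± 0.14 for prenatal LPS averaged (interval -0.80 to -0.23, adjusted p = 0.0259). In LPS-LPS against saline-LPS it was -0.69 ± 0.20 (adjusted p = 0.123), and in LPS-saline against saline-saline -0.35 ± 0.19 (adjusted p = 0.458). Saline-LPS and saline-saline did not differ beyond their spread, at -0.03 ± 0.19. The prenatal effect was not shown to differ between the pubertal injections, the interaction being -0.34 ± 0.28 (adjusted p = 1.0). Relative to Drd1 in the same library, Drd5 had a log2 count ratio lower by -0.37 with prenatal LPS, with an exact stratified permutation p of 0.0257 that became 0.27 after adjustment over the 21 ratio tests.

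The Drd5 call rested on many of the libraries. For LPS-LPS against saline-saline its edgeR adjusted p was 0.111 without LPS-LPS 1 (the library with pituitary RNA), 0.0523 without LPS-LPS 2 and 0.0913 without LPS-LPS 3 (the library with Xist). It was 0.0541 without saline-saline 1, 0.101 without saline-saline 2 and 0.0979 without saline-saline 4, while the log2 fold change stayed between -0.83 and -0.58. The adjusted p for prenatal LPS averaged was 0.0582 without LPS-LPS 1, 0.0529 without LPS-LPS 3, 0.0626 without LPS-saline 1, 0.0557 without LPS-saline 3, 0.0563 without saline-saline 2 and 0.0577 without saline-saline 4. Within the 8 libraries under 1 CPM of Gabra6 the LPS-LPS against saline-saline estimate was -0.55, with LPS-LPS 2 as the only LPS-LPS library. Within the other 8 it was -0.93, with LPS-LPS 1, 3 and 4 set against saline-saline 4 alone. The same sets gave -0.40 and -0.66 for prenatal LPS averaged. With 1 library on a side these are effect sizes only, and the groups were not balanced for cerebellar RNA. With the striatal list as a covariate the estimates were close to those without it, at -0.67 (adjusted p = 0.0833) in LPS-LPS against saline-saline and -0.48 (adjusted p = 0.0786) for prenatal LPS averaged. Genes of greater exonic length had lower log2 fold changes, a description over 18826 genes that are not independent of each other, with Spearman's rho of -0.30 in LPS-LPS against saline-saline and -0.27 for prenatal LPS averaged. With a correction for exonic length Drd5 stood at -0.76 (edgeR adjusted p = 0.0451) and -0.54 (adjusted p = 0.0308) in these comparisons.

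Among markers of regions outside the striatum, 1 of 5 dentate and 1 of 7 thalamus genes fell in LPS-LPS against saline-saline, while 1 of 6 cortex and 2 of 8 olfactory bulb genes rose there (2.29% of all genes were called lower and 4.27% higher). Prox1, a transcription factor of dentate granule cells, fell to 18.4, 15.6, 16.2 and 15.1 CPM in LPS-LPS, against 31.2, 33.6, 24.9 and 29.7 CPM in saline-saline (log2 fold change -0.86 ± 0.17, edgeR adjusted p = 0.00906). It was the only called gene of 5 dentate markers, whose summed level was 35.7 to 42.4 CPM in LPS-LPS, 39.0 to 46.3 in LPS-saline, 36.4 to 69.8 in saline-LPS and 51.6 to 63.9 in saline-saline. Of 7 thalamus markers, Plekhg1 fell in LPS-LPS against saline-saline (-0.94 ± 0.22, adjusted p = 0.0243), and Plekhg1 (-0.56 ± 0.15, adjusted p = 0.0424) and Rora (-0.27 ± 0.07, adjusted p = 0.0327) fell for prenatal LPS averaged. Over all genes, 2.92% were called lower for prenatal LPS averaged. The thalamus list summed to 152 to 191 CPM in LPS-LPS, 168 to 225 in LPS-saline, 181 to 285 in saline-LPS and 233 to 274 in saline-saline. The called cortex marker was Lamp5, a membrane protein gene (0.29 ± 0.08, adjusted p = 0.03), and the cortex list summed to 480 to 502 CPM in LPS-LPS, 452 to 506 in LPS-saline, 446 to 511 in saline-LPS and 433 to 468 in saline-saline. No marker of these 3 lists was at 0 in all libraries. With the thalamus list level as a covariate, a setting added after the data were seen, Drd5 stood at -0.68 (adjusted p = 0.222) in LPS-LPS against saline-saline and -0.50 (adjusted p = 0.118) for prenatal LPS averaged. With the cerebellar list as a covariate it stood at -0.75 (adjusted p = 0.015) and -0.53 (adjusted p = 0.0115). Within groups, Drd5 had Pearson's r = 0.04 with the mean level of the thalamus list (rho = -0.01, permutation p = 0.896 and 0.981), r = -0.09 with the dentate list (rho = -0.14, permutation p = 0.766 and 0.634) and r = 0.39 with the cerebellar list (rho = 0.29, permutation p = 0.17 and 0.324). These values differed in sign between the libraries under and at or above 1 CPM of Gabra6. There r was 0.65 and -0.33 for the thalamus list, 0.51 and -0.57 for the dentate list. For the cerebellar list it was -0.33 and 0.65. Drd5 also shares 1531 of its 3152 exonic bases with the antisense gene Gm26560, which had 0 to 9 counts per library. The strand setting is not stated, so reads over these bases may have gone to either gene or been set aside as ambiguous. If they were set aside, the CPM per kb of Drd5 would be too low.

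Drd3, the D2-like receptor gene typical of the islands of Calleja and nucleus accumbens, was near the limit of what these libraries resolve. It had 12 to 18 counts per library in LPS-LPS, 2 to 32 in LPS-saline, 10 to 32 in saline-LPS and 19 to 37 in saline-saline. The groups overlapped, and the 4 LPS-saline brains alone ranged from 0.0777 to 0.905 CPM. The log2 fold change of LPS-LPS against saline-saline was -0.56 ± 0.42, with an interval from -1.43 to 0.32 that holds both a large fall and no change. Drd4, a D2-like receptor gene of cortex and retina, had 17 to 23 counts per library in LPS-LPS, 9 to 25 in LPS-saline, 10 to 30 in saline-LPS and 13 to 25 in saline-saline, and these ranges overlapped. Its log2 fold change was 0.25 ± 0.36 in LPS-LPS against saline-saline (interval -0.49 to 1.00) and 0.07 ± 0.26 for prenatal LPS averaged.

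Th, the rate-limiting enzyme of dopamine synthesis, stood higher in brains with prenatal LPS without reaching the threshold. It had 23.8, 28.5, 29.2 and 23.4 CPM in LPS-LPS and 32.0, 29.3, 30.0 and 24.3 CPM in LPS-saline. Prenatal saline brains had 25.4, 27.9, 17.7 and 24.0 CPM in saline-LPS and 22.1, 25.5, 21.4 and 19.7 CPM in saline-saline. Of the 4 LPS-saline brains, 3 lay above the highest saline-saline brain, but the groups overlapped. The log2 fold change was 0.39 ± 0.12 in LPS-saline against saline-saline (edgeR adjusted p = 0.172), 0.25 ± 0.12 in LPS-LPS against saline-saline (adjusted p = 0.242) and 0.27 ± 0.09 for prenatal LPS averaged (interval 0.09 to 0.45, adjusted p = 0.0637). Pubertal LPS averaged gave -0.02 ± 0.09.

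The prenatal average of Th lay close enough to the threshold that several settings moved it across, while others moved it away. Its adjusted p was 0.0267 by DESeq2, 0.0238 with the replicate number as a block and 0.0027 with the cerebellar list as a covariate, and in each the log2 fold change was between 0.27 and 0.30. It was 0.0329 without LPS-saline 4 and 0.0302 without saline-LPS 2. With the cerebellar covariate the LPS-saline against saline-saline value (0.43, adjusted p = 0.0154) and the LPS-LPS against saline-saline value (0.31, adjusted p = 0.0221) also passed. In the other direction, the exonic length correction gave a prenatal average of 0.23 (edgeR adjusted p = 0.178). The edgeR adjusted p was 0.13 with the striatal covariate, 0.142 with the thalamus covariate and 0.106 without the low-count filter. Within the libraries under 1 CPM of Gabra6 the prenatal average was 0.26, with LPS-LPS 2 as the only LPS-LPS library. Within the others it was 0.39, with saline-saline 4 as the only saline-saline library.

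Th is expressed by midbrain dopamine neurons, by interneurons around the glomeruli of the olfactory bulb and by noradrenergic neurons. Marker lists for midbrain dopamine neurons, the olfactory bulb and noradrenergic neurons were read beside it. The olfactory bulb list was named for the region and not for these interneurons, whose own markers were not read. Of 8 olfactory bulb markers, Trh (0.36 ± 0.06, edgeR adjusted p = 0.00279), Shisa8 (0.33 ± 0.08, adjusted p = 0.0207) and Eomes (0.34 ± 0.09, adjusted p = 0.0268) rose for prenatal LPS averaged, where 4.9% of all genes were called higher, and all 8 had fold changes above 0. Their summed level was 246 to 284 CPM in LPS-LPS, 239 to 285 in LPS-saline, 198 to 274 in saline-LPS and 217 to 241 in saline-saline. Of 12 markers of midbrain dopamine neurons, 0 were called by edgeR for prenatal LPS averaged (1 at an unadjusted p under 0.05), with a median of -0.10, and they summed to 158 to 178 CPM in LPS-LPS, 143 to 192 in LPS-saline, 159 to 224 in saline-LPS and 165 to 193 in saline-saline. The noradrenergic list had 2 of 5 genes tested and 0 called, and summed to 0.595 to 7.70 CPM in LPS-LPS, 0.638 to 7.62 in LPS-saline, 0.714 to 8.19 in saline-LPS and 0.451 to 7.96 in saline-saline. With the olfactory bulb list as a covariate, added after the data were seen, the prenatal average of Th was 0.20 (adjusted p = 0.605), and that of Drd5 was -0.61 (adjusted p = 0.316).

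Slc6a3, the plasma membrane dopamine transporter that marks midbrain dopamine neurons, was not called in any comparison. It had 9.11, 13.3, 9.28 and 7.91 CPM in LPS-LPS and 15.7, 8.97, 11.7 and 9.41 CPM in LPS-saline. Prenatal saline brains had 19.4, 13.3, 8.56 and 9.07 CPM in saline-LPS and 13.1, 15.9, 12.4 and 7.44 CPM in saline-saline. The saline-LPS brains alone spanned 8.56 to 19.4 CPM, and all groups overlapped. Its log2 fold change was -0.29 ± 0.30 in LPS-LPS against saline-saline and -0.22 ± 0.21 for prenatal LPS averaged (interval -0.67 to 0.24, edgeR adjusted p = 0.604).

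Slc6a3 had a lower median in the libraries with more cerebellar RNA. In the 8 libraries under 1 CPM of Gabra6, Slc6a3 ran from 8.97 to 19.4 CPM with a median of 13.3, and in the 8 at or above 1 CPM it ran from 7.44 to 11.7 CPM with a median of 9.09. Th had medians of 26.7 and 23.9 CPM in the same sets of libraries. Departures of Slc6a3 from its group means had r = -0.79 with those of the cerebellar granule cell list over the 16 libraries (permutation p = 0.00428) and rho = -0.79 (permutation p = 0.00418). After adjustment over 54 pairs of genes and lists these missed the threshold (adjusted p = 0.0578 and 0.0564). Without the 2 farthest libraries r was -0.67, and within the sets under and at or above 1 CPM of Gabra6 it was -0.27 and -0.71. The count ratio of Slc6a3 to Th, which does not depend on library depth, was 0.318 to 0.467 in LPS-LPS, 0.307 to 0.491 in LPS-saline, 0.379 to 0.764 in saline-LPS and 0.378 to 0.622 in saline-saline. On the log2 scale the ratio was lower by -0.45 with prenatal LPS (exact stratified permutation test, two-sided, p = 0.0155), which became an adjusted p of 0.27 over the 21 ratio tests and so did not pass.

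The other genes of dopamine handling showed little. None of the 6 genes of cofactor supply, decarboxylation and vesicle loading was called in any of the 8 comparisons, with 1 at an unadjusted p under 0.05 for prenatal LPS averaged. There the smallest p belonged to Spr, a sepiapterin reductase that makes the cofactor of Th (0.16 ± 0.05, edgeR adjusted p = 0.0599). Ddc, the decarboxylase after Th, stood at -0.12 ± 0.07 (adjusted p = 0.291), and Slc18a2, the vesicular monoamine transporter, at -0.21 ± 0.13 (adjusted p = 0.368). None of the 5 genes of dopamine breakdown was called. The smallest p for prenatal LPS averaged belonged to Aldh2, an aldehyde dehydrogenase, at 0.10 ± 0.05 (edgeR adjusted p = 0.2).

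Of 26 genes that act next to the receptors, 2 rose and 1 fell both in LPS-LPS against saline-saline and for prenatal LPS averaged, and the list medians were -0.01 and 0.01. Over all genes, 4.27% were called higher and 2.29% lower in LPS-LPS against saline-saline, and 4.9% and 2.92% for prenatal LPS averaged. Caly, a calcyon vesicle protein first described as a D1 receptor partner, rose by 0.34 ± 0.07 on the log2 scale in LPS-LPS against saline-saline (edgeR adjusted p = 0.00773). Ppp1ca, the phosphatase that DARPP-32 inhibits, rose by 0.23 ± 0.05 (adjusted p = 0.00996), and Kcnj6, a potassium channel that D2 receptors open in dopamine neurons, fell by 0.38 ± 0.11 (adjusted p = 0.0415). For prenatal LPS averaged the estimates were 0.26 ± 0.05 for Caly, 0.17 ± 0.03 for Ppp1ca and -0.30 ± 0.08 for Kcnj6. Of the 21 tested striatal markers, 0 were called in LPS-LPS against saline-saline (4 at an unadjusted p under 0.05), with a median of -0.06. For prenatal LPS averaged 1 fell, the sodium channel subunit gene Scn4b (-0.22 ± 0.07, adjusted p = 0.0476), with a median of -0.06.

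Ppp1r1b and Adora2a varied together from brain to brain. Deviations of log2(CPM + 0.5) from the group means were correlated over the 16 libraries for 36 pairs of genes, with p-values from permutations within groups. This pair had Pearson's r = 0.87 (permutation p = 0.00065, adjusted p = 0.0234) and Spearman's rho = 0.81 (permutation p = 0.00481, adjusted p = 0.0864). Without the 2 libraries farthest from the median, r was 0.85, and it was 0.96 and 0.87 within the libraries under and at or above 1 CPM of Gabra6. Leaving out 1 library at a time kept r between 0.84 and 0.94, with adjusted p from 0.0112 to 0.0835.

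The other pairs among Drd1, Drd2, Adora2a and Ppp1r1b did not pass the adjustment over 36 pairs. Drd2 and Adora2a, both genes of indirect-pathway neurons, had r = 0.78 (permutation p = 0.00316, adjusted p = 0.0569) and rho = 0.73 (p = 0.00853 by permutation, adjusted p = 0.0864). Drd1 had r = 0.77 with Ppp1r1b (permutation p = 0.00556, adjusted p = 0.0667) with rho = 0.79, and r = 0.77 with Adora2a (permutation p = 0.0155, adjusted p = 0.093) with rho = 0.71. Drd2 and Ppp1r1b had r = 0.64 (permutation p = 0.0289, adjusted p = 0.149), and Drd1 and Drd2 r = 0.48 (permutation p = 0.0852, adjusted p = 0.279). Th and Slc6a3 had r = 0.70 (permutation p = 0.0123, adjusted p = 0.093) and rho = 0.71, which was 0.66 without the 2 farthest libraries and 0.47 and 0.56 within the Gabra6 sets. Drd5 followed none of the striatal genes closely, with r from -0.01 to 0.26.

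**Figure D3:**
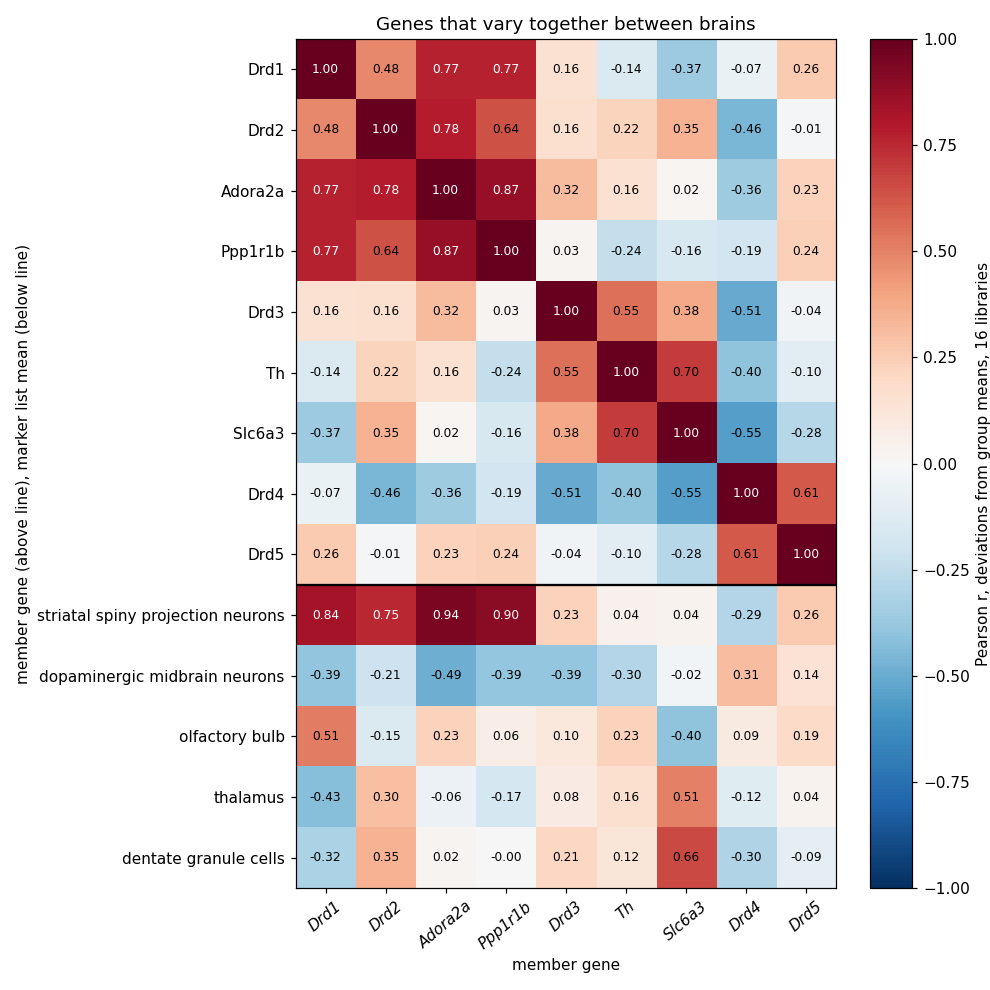
Pearson's r (colour and printed value) of deviations from group means over 16 libraries, between the 9 genes (columns) and the same genes or the mean level of 5 marker lists (rows, above and below the line). Drd1, Drd2, Adora2a and Ppp1r1b have r from 0.48 to 0.87 with each other, of which 1 pair of 6 passed the adjustment, and 0.75 to 0.94 with the striatal list, where Adora2a and Ppp1r1b passed. Th and Slc6a3 have r = 0.70, which did not pass.

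The mean level of the 21 striatal markers, which excludes these genes, followed Adora2a and Ppp1r1b. These comparisons of genes with 6 marker lists (54 pairs) were added after the data were seen. Adora2a had r = 0.94 with the striatal list (permutation p = 0.00019, adjusted p = 0.0103) and rho = 0.94 (permutation p = 0.00013, adjusted p = 0.00702), with r = 0.93 and 0.96 within the Gabra6 sets. Ppp1r1b had r = 0.90 (adjusted permutation p = 0.0267). Drd1, with r = 0.84 (adjusted permutation p = 0.0767), and Drd2, with r = 0.75 (adjusted permutation p = 0.0578), did not pass. The midbrain dopamine list had r = -0.30 with Th and -0.02 with Slc6a3 within groups. Beside the -0.79 of Slc6a3, Th had r = -0.72 with the cerebellar list (permutation p = 0.0069, adjusted p = 0.0745) and rho = -0.68 (adjusted permutation p = 0.145), with r = -0.49 and -0.50 within the Gabra6 sets. Th had r = 0.23 with the olfactory bulb list within groups (permutation p = 0.668), and both stood higher in the prenatal LPS groups. Within the sets under and at or above 1 CPM of Gabra6, this r was 0.34 and 0.72. All libraries share their depth and dissection with every gene measured in them, so these correlations describe the samples.

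**Figure D4:**
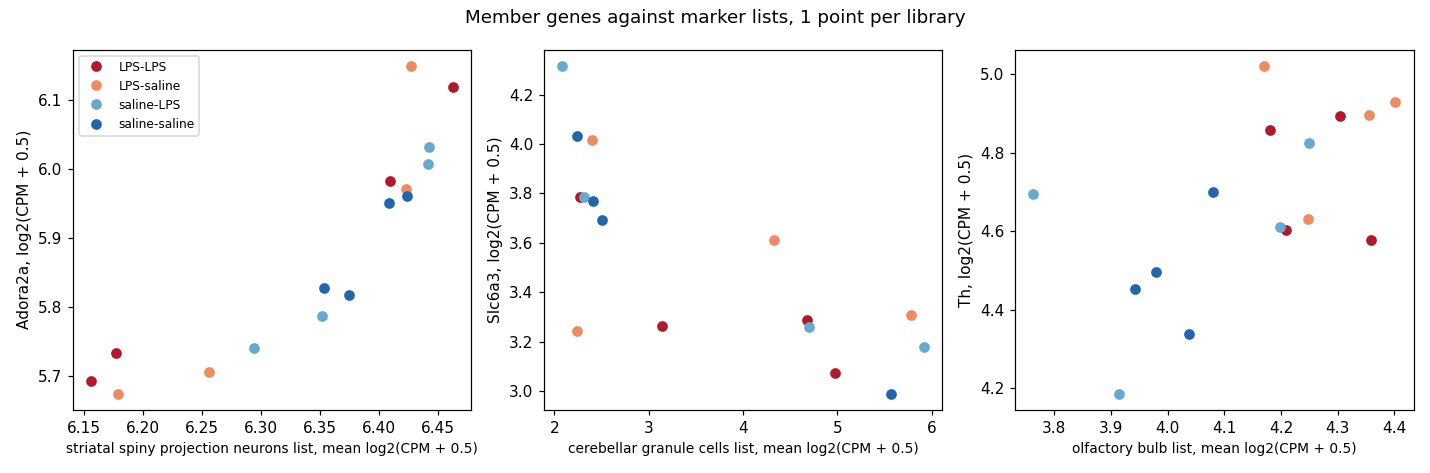
Log2(CPM + 0.5) of Adora2a, Slc6a3 and Th (y axes) against the mean log2(CPM + 0.5) of the striatal, cerebellar and olfactory bulb marker lists (x axes), 1 point per library coloured by group. Adora2a rises with the striatal list in every group, and most prenatal LPS libraries lie toward the upper right for Th. On the cerebellar axis the libraries fall into a low and a high set, with LPS-LPS 1 between them at 3.14. Slc6a3 medians were 13.3 and 9.09 CPM in the libraries under and at or above 1 CPM of Gabra6, a split that puts LPS-LPS 1 in the latter.

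Genes among the 5 most like each of Drd1, Drd5 and Th over the 16 libraries were listed by Pearson's r of log2(CPM + 0.5), group differences included, as a description. For Drd1 they included Pde10a (0.83), Ddx42 (0.82) and Foxp1 (0.82), of which Pde10a and Foxp1 were on the striatal list. For Drd5 they were Srsf2 (0.93), Ccser2 (0.89), Sos2 (0.88), Dpp8 (0.87) and Cpeb4 (0.87), none of them on a list used here. For Th they were Ppp1r16a (0.91), Sp8 (0.86), Cck (0.85), Gng4 (0.85) and Cd68 (0.85). For Slc6a3, added after the data were seen, they included Klhl18 (0.87), Cep250 (0.86), Osmr (0.85) and Clcn7 (0.84).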

How the data were processed

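The authors deposited whole-number read counts per Ensembl gene, for which the submitters' processing notes name the aligner STAR 2.5.2b, the counter HTSeq 0.11.2 and the build GRCm38. How strand was handled, which annotation release was used and which reads were dropped is not given in the labels or notes used here. Each file held 49671 genes and 5 special entries (17.2 to 19.6% of all counts), which were left out of library sizes. Symbols and coordinates came from GENCODE M21, in which 49412 identifiers matched. The genes and marker lists were chosen with earlier results of these data known.

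Genes were filtered with filterByExpr, scaled by TMM and tested in 1 model of the 4 groups with edgeR 4.0.16 (R 4.3.3), two-sided, with Benjamini-Hochberg adjustment over 18875 genes and a threshold of 0.05. All 9 genes passed the filter, so the permutation test planned for genes below it was not needed. Ratios added 0.5 to each count and used exact permutation tests, whose smallest p is 0.0286 for 4 against 4 mice. Correlations used 100000 permutations. DESeq2 1.42.0, no filter, a replicate block, covariates, an exonic length correction and leaving out each library were alternatives. Genes from the lists were named where called, otherwise the 3 of smallest p were eligible. Results of 4 genes that these rules take are not reported here. The tests were first tried on simulated data.

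The labels number the replicates. Departures from group means over 15228 genes were correlated between same-numbered libraries. Every r was above 0.1 for LPS-LPS with saline-LPS (0.294 to 0.387), LPS-LPS with LPS-saline (0.181 to 0.346) and LPS-saline with saline-saline (0.138 to 0.599). Replicate 3 had only 0.0154 for LPS-LPS with saline-saline and 0.0332 for saline-LPS with saline-saline. Values for libraries of different numbers are not given beside these, so a pairing of mice was not shown. The main edgeR tests and the ratio tests used no pairing, and the replicate block was an alternative. No libraries of a group were duplicates, with chi-square per gene of 5.17 or more. Standard errors and ranges over libraries include the spread between mice.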

Additional observations from a re-analysis of the deposited data

Results flagged for a closer look

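In 48 sets of 4 mice (9 genes and 3 ratios in each of 4 groups), the highest or lowest mouse was checked for a gap to the others that fills most of the range, which chance gives in about 1 in 20 sets. It occurred in 2 sets, both through saline-saline 4. Drd1 was 32.4 CPM there, above the 27.2 to 27.6 CPM of the other saline-saline brains. The log2 ratio of Slc6a3 to Th was -1.40 there, the lowest of that group, and saline-saline 4 was also the only saline-saline library at or above 1 CPM of Gabra6, at 44.7 CPM. Its part in either value was not tested.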

How the results depend on the processing

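Across 1944 fold changes of the 9 genes under 27 alternatives, 0 changed sign as called values, 1883 kept their side of the threshold or moved by less than their spread, 22 lost it, 8 gained it and 31 moved. In LPS-LPS against saline-saline, 1 of the 9 was called. The count was 2 with the cerebellar covariate, and 0 with the olfactory bulb or thalamus covariate. It was 0 to 1 when single libraries were left out. With the striatal covariate it was still 1, but Drd5 (log2 fold change -0.67, adjusted p = 0.0833) gave way to Ppp1r1b. For prenatal LPS averaged, 1 was called, against 2 (Drd5 and Th) with DESeq2, with the replicate block and with the cerebellar covariate. It was 0 with the striatal, olfactory bulb or thalamus covariate, and 0 to 2 when single libraries were left out. In LPS-saline against saline-saline, the cerebellar covariate gave 1 in place of 0. In the other 5 comparisons and among the 21 ratio tests 0 passed under any alternative run. The replicate block changed no other call of these genes. Correlations past the threshold numbered 1, with 2 on TMM-scaled CPM and 0 to 3 without single libraries. The causes were not tested, except that subsets hold fewer mice. Each Gabra6 set left 1 library in a group, so its counts of called genes are not given. Over all genes, calls in LPS-LPS against saline-saline numbered 1238, with 5 to 2306 under other settings and 297 to 1981 without single libraries. For prenatal LPS averaged they numbered 1476, with 13 to 2767 and 700 to 1645. For LPS-LPS against saline-LPS they numbered 115 (5 to 856, and 22 to 126), and for LPS-saline against saline-saline 34 (2 to 494, and 7 to 391). Depth limits Drd3, Drd4 and Drd5 most, at 2 to 71 counts per library.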
